A study of Mus musculus with 2 samples.

Results

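Chemokines and their receptors were described in Mll1 conditional knockout (Mll1 cKO) and control mouse myoblasts. The genes were taken by symbol alone: every probe set with exactly 1 symbol naming a C, CC, CXC or CX3C chemokine, one of their receptors, or an atypical chemokine receptor was kept. This gave 61 probe sets for 56 genes, of 21789 probe sets with 1 symbol and 35557 in all. Of these, 39 probe sets measured 34 ligand genes and 22 measured 22 receptor genes.

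MLL1 is a histone methyltransferase that writes H3K4 methylation, and the study asked what its loss does to gene expression in muscle progenitors. The Mll1 cKO culture was treated with 500 nM 4-hydroxytamoxifen in 0.01% ethanol for 7 days, which activates the Cre recombinase, and the control culture received 0.01% ethanol alone. Both were Rosa-CreER / MLL1 fl/fl myoblasts of 1 line, grown in 20% FBS with 5 ng/ml FGF and harvested after a washout of 3 days per the sample labels, so the control carried the same floxed alleles and the same Cre, which the Rosa26 locus drives in all cell types. The cells came from hind limb muscles of mice 5 to 6 weeks old and had been depleted of CD11b+, SCA1+, CD45+ and CD31+ cells before selection on alpha7-integrin. Each condition had 1 Affymetrix MoGene 1.0 ST array, so differences were not tested and have no replicate spread to set them against, and the effect of the deletion and that of the drug or of the single culture cannot be told apart.

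Values are log2 signals, and a difference is the signal in Mll1 cKO minus that in control, so that a difference of one unit is a doubling. A difference over 2-fold, the cut-off used in the study's methods, is a statement of size and not of significance. The targeted gene, Kmt2a (Mll1), read 9.66 in Mll1 cKO and 9.44 in control on a probe set that covers the whole transcript, which checks nothing about the deleted exons. As a yardstick for dim signals, the 95th percentile of 1205 odorant and pheromone receptor probe sets was 4.59 in Mll1 cKO and 4.87 in control, and all 12 myoblast markers exceeded it in both arrays. Their signals spanned 6.14 to 12.27 in Mll1 cKO and 9.43 to 12.15 in control. The myogenic factor Myf5 was the 1 marker over 2-fold lower, with 6.14 in Mll1 cKO and 9.51 in control.

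Chemokines are small secreted proteins that direct cell migration by binding G protein-coupled receptors, and they are grouped as C, CC, CXC and CX3C by the spacing of conserved cysteines near the amino terminus. Atypical receptors bind chemokines without classical G protein signalling, and so scavenge or transport them. In regenerating muscle, CC and CXC chemokines recruit neutrophils and monocytes, while CXCL12 acting on CXCR4 guides migrating muscle precursors. CX3CL1 is unusual in being made as a membrane-anchored protein with a mucin stalk, which proteases cut to release the soluble form.

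Most members had low signals in these cells. The median signal was 4.56 in Mll1 cKO and 4.71 in control, against 6.28 in Mll1 cKO and 6.21 in control over all probe sets with 1 symbol. Of the 61 probe sets, 29, for 24 genes, exceeded the dim yardstick in both arrays, which is a description and not a detection call. Only Cx3cl1, Cxcl12, Cxcr4 and Ackr3 had a signal over 7 in both arrays. Ccl25 and Ccl5 passed 7 in Mll1 cKO alone.

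**Figure D1:**
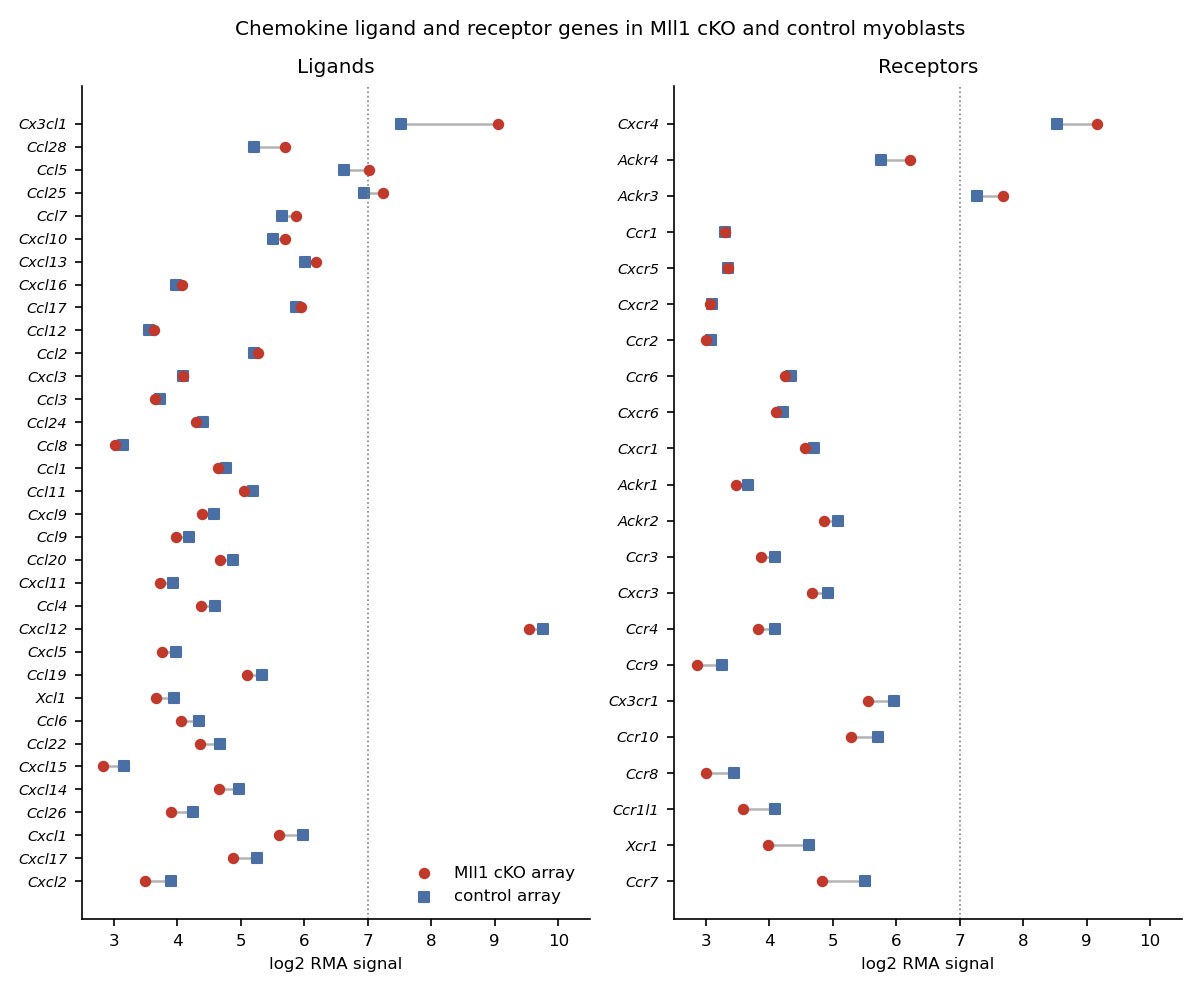
Log2 signals of the 56 genes (mean of a gene's probe sets) in Mll1 cKO (circles) and control (squares), ligands on the left and receptors on the right, each ordered by difference, with 1 array per condition, no error bars and a dotted line at 7. Cx3cl1 shows the widest gap between its points, 9.05 in Mll1 cKO and 7.53 in control, and most receptors lie under 6.

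Of the 61 probe sets, 1 was over 2-fold higher in Mll1 cKO, that of Cx3cl1, where 1.18% of all probe sets with 1 symbol were (258 of 21789). None was over 2-fold lower, where 0.101% of all were (22 probe sets). At 1.5-fold, Cx3cl1 and Cxcr4 were higher, 2 members against a background of 4.85%, and Ccr7 and Xcr1 were lower, 2 members against a background of 2.03%. Both counts are small, and the share of members past either cut-off stood close to that of the whole array. In sign alone, 15 probe sets were higher in Mll1 cKO, 43 were lower (70.5%) and 3 had identical values, while 56.0% of all probe sets with 1 symbol were lower. The median difference was -0.20 over the members and -0.05 over all probe sets with 1 symbol.

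The sign of the difference went with signal strength. Among the 8 probe sets with a mean signal over 6 (7 genes, with Ccl25 on 2 probe sets), 7 were higher and 1 was lower. Over all 11404 probe sets with 1 symbol in that range, 56.9% were higher. The median difference was 0.36 over the 8 and 0.05 over the 11404. Among the other 53, the median difference was -0.22 and 79.2% were lower. The same shift ran through the array, since the 10385 probe sets with 1 symbol in that range had a median of -0.145 and 70.6% of them were lower. With the trend of difference on signal removed, 28 members were higher and 33 were lower (54.1%), beside 49.5% lower over all probe sets with 1 symbol. Under at least 1 of 3 other scalings the sign was not kept for 13 probe sets, those of Ccl1, Ccl3, Ccl11, Ccl20, Ccl24, Cxcl3, Cxcl9, Ccr1, Ccr6, Cxcr1, Cxcr2, Cxcr5 and Cxcr6, so the counts of higher and lower members by class and cluster hold for the signals as deposited.

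**Figure D2:**
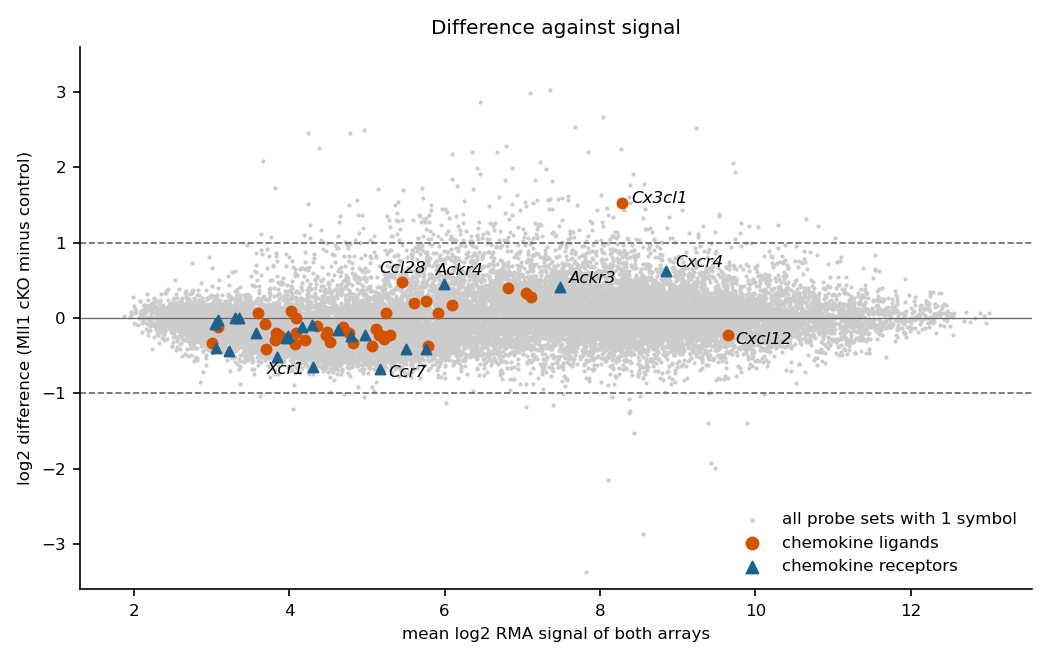
Difference in log2 signal (Mll1 cKO minus control) against the mean log2 signal of the arrays, for the 61 member probe sets (ligands as circles, receptors as triangles) and all probe sets with 1 symbol (grey), with dashed lines at 2-fold. Most members with a mean under 6 lie below 0, as most grey points there do, while Cx3cl1 stands at 1.52 and Cxcr4 at 0.62 among brighter probe sets.

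Cx3cl1 (fractalkine) had the largest difference of the family. Its signal was 9.05 in Mll1 cKO and 7.53 in control, a difference of 1.52 or 2.87-fold higher in Mll1 cKO. Only 0.321% of the 2179 probe sets of similar signal had a difference as high. The fold was 2.99 with all differences centred on their median, 2.78 with the trend on signal removed and 2.73 after a second quantile normalization. CX3CL1 attracts and holds monocytes, T cells and natural killer cells that carry its receptor, CX3CR1. Cx3cr1 read 5.55 in Mll1 cKO and 5.96 in control, 1.33-fold lower, and 15.1% of probe sets of similar signal had a difference as low. The proteases that shed CX3CL1 from the membrane differed little: Adam10 read 9.47 in Mll1 cKO and 9.71 in control, and Adam17 read 9.31 in Mll1 cKO and 9.49 in control.

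The promoter of Cx3cl1 is printed with those of its chemokine neighbours on chromosome 8, because Cx3cl1 lies between genes of the family that did not share its difference, and with those of Cxcr4 and Cxcl12, a receptor and its ligand with signals far above the dim range. Each run is the RefSeq window of GRCm38.p6 that spans 250 bases before to 50 after the annotated start, 5′ to 3′ on the strand of the gene, with CpG dinucleotides in capitals.
Cx3cl1, chr8:94771930-94772229, plus strand: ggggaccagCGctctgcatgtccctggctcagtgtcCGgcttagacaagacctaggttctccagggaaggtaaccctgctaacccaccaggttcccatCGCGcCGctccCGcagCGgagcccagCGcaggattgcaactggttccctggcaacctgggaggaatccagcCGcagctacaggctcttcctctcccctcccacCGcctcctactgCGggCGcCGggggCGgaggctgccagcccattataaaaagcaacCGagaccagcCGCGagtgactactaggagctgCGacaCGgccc
Ccl22, chr8:94745434-94745733, plus strand: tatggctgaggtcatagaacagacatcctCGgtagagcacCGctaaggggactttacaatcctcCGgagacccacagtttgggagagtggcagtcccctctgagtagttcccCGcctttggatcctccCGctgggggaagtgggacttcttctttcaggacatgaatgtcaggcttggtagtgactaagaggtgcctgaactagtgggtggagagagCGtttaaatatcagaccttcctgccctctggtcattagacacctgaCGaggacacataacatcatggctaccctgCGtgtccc
Ccl17, chr8:94810203-94810502, plus strand: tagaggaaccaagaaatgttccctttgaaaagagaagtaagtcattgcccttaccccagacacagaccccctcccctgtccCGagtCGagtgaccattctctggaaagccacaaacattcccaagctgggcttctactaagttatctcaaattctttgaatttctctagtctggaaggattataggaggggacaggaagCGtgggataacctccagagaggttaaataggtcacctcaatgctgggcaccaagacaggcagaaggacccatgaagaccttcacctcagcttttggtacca
Cxcr4, chr1:128592250-128592549, minus strand: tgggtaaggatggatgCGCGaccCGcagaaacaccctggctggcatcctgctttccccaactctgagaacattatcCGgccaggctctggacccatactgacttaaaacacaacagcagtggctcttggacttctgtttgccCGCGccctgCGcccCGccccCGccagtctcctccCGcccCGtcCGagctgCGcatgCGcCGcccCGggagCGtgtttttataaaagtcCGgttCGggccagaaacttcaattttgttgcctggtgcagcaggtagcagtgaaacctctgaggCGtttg
Cxcl12, chr6:117168285-117168584, plus strand: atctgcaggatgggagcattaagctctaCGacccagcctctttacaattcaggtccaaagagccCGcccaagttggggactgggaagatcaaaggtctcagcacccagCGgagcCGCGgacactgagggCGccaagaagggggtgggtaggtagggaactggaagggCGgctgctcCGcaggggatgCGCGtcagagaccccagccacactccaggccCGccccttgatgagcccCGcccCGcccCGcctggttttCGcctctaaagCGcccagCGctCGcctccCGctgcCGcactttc

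The CpG content of these windows did not sort with the differences. Cx3cl1 held 19 CpG, more than 71.9% of 32851 promoters in the table, while Ccl22 held 8 and Ccl17 held 3. Cxcr4 and Cxcl12 held 20 each, and these genes differed in opposite directions. Over 42 member genes with a promoter in the table, the 12 with 10 or more CpG had a median difference of -0.05 (5 higher, 6 lower, 1 equal) and the 30 with fewer had -0.20 (5 higher, 24 lower, 1 equal). The CpG-rich group was also brighter, with a median mean signal of 5.69 against 4.13, and the part of signal in that gap was not tested. Spearman's rho between CpG count and difference was 0.10 across the 42 genes, which are not independent replicates.

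Motifs of regulators that commonly act on chemokine genes were sought on both strands of the windows. Neither the kappaB consensus, present in 4.51% of all promoters, nor 2 copies of GAAA with 2 bases between them, the core bound by interferon regulatory factors, present in 3.44%, occurred in any of the 5 windows or in that of Ackr3. The E box CANNTG, the letters bound by myogenic and other bHLH proteins, occurred in 72.3% of all promoters. The window of Cx3cl1 held 1, whose first base lay 116 bases before the start, and those of Ccl22 and Ackr3 also held 1 each, while those of Ccl17, Cxcr4 and Cxcl12 held none. These are matches of letters, not sites.

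The 3 chemokine genes of the chromosome 8 cluster span 66.4 kb, and only Cx3cl1 was over 2-fold. Ccl22, a ligand of CCR4, read 4.36 in Mll1 cKO and 4.68 in control, both below the dim yardstick of their array. Ccl17, the other CCR4 ligand, read 5.95 in Mll1 cKO and 5.87 in control. Within 200 kb on either side of Cx3cl1, the 12 measured neighbours had differences of -0.32 to 0.63, none over 2-fold. The highest was Adgrg1, an adhesion G protein-coupled receptor, at 9.76 in Mll1 cKO and 9.13 in control.

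**Figure D3:**
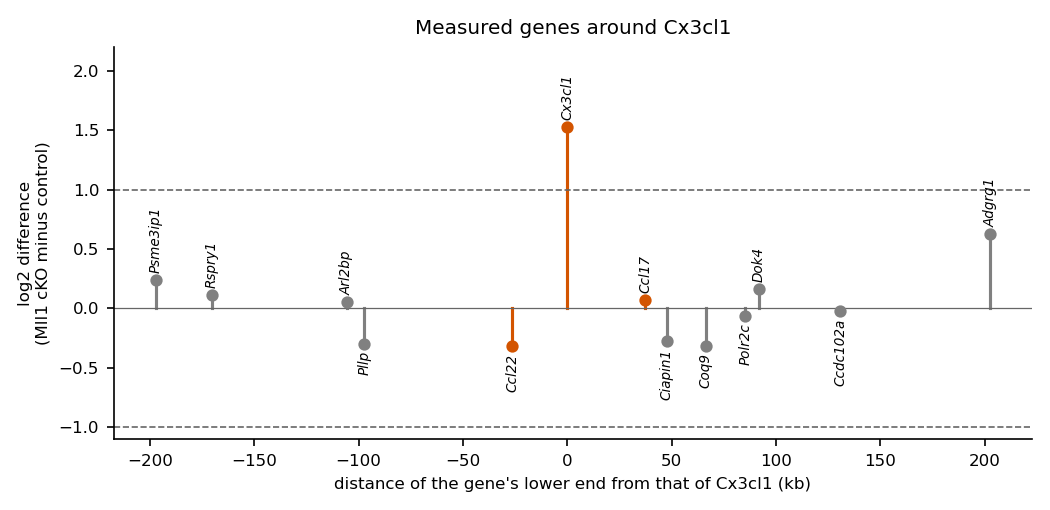
Difference in log2 signal (Mll1 cKO minus control) of the measured genes within 200 kb of Cx3cl1, against the distance in kb between the lower chromosomal end of each gene and that of Cx3cl1, with members in orange, other genes in grey and dashed lines at 2-fold. Cx3cl1 stands at 1.52, and its 12 neighbours lie between -0.32 and 0.63.

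Cxcl12, its signalling receptor Cxcr4 and its scavenging receptor Ackr3 all had signals over 7 in both arrays. Cxcl12 (SDF-1) read 9.53 in Mll1 cKO and 9.76 in control, 1.17-fold lower in Mll1 cKO. Cxcr4 read 9.16 in Mll1 cKO and 8.54 in control, 1.54-fold higher. This was the second-largest positive difference among the members, and 3.81% of probe sets of similar signal had one as high. Ackr3 (CXCR7) read 7.69 in Mll1 cKO and 7.28 in control, 1.33-fold higher, as 16.5% of probe sets of similar signal were. Hence both receptors were higher and the ligand lower in Mll1 cKO, each by less than 2-fold.

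Among CC ligands, 24 probe sets for 19 genes had differences between -0.35 and 0.48, with 8 higher and 16 lower. The largest was that of Ccl28, a mucosal chemokine that binds CCR10 and CCR3, with 5.70 in Mll1 cKO and 5.21 in control (1.40-fold higher). Ccl5 (RANTES), which draws T cells and monocytes, read 7.02 in Mll1 cKO and 6.62 in control (1.32-fold higher). Ccl25, the thymic and gut ligand of CCR9, had 2 probe sets in accord, at 7.22 and 7.26 in Mll1 cKO and 6.89 and 6.98 in control. The monocyte chemoattractant Ccl2 differed little, with 5.28 in Mll1 cKO and 5.21 in control, and its relative Ccl7 read 5.87 in Mll1 cKO and 5.64 in control. Ccl19, a CCR7 ligand, had 5 probe sets with differences of -0.27 to -0.22, 2 of them with identical signals. The mouse genome holds near-identical Ccl19 copies, so these probe sets are not independent measurements and the signals of the copies cannot be told apart. The genes of this class outside the named rule had differences of -0.35 to 0.22.

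Among CXC ligands, 13 genes had differences between -0.41 and 0.20, with 3 higher, 9 lower and 1 equal. Cxcl2, a neutrophil chemoattractant that binds CXCR2, had the largest, at 3.49 in Mll1 cKO and 3.91 in control, both below the dim yardstick of their array. Cxcl1, which acts on the same receptor, read 5.60 in Mll1 cKO and 5.97 in control. The interferon-inducible Cxcl10, a CXCR3 ligand, read 5.70 in Mll1 cKO and 5.50 in control, while Cxcl9 and Cxcl11 had differences of -0.19 and -0.20. Cxcl13, which attracts B cells through CXCR5, read 6.19 in Mll1 cKO and 6.01 in control. Xcl1 (lymphotactin), the C chemokine, read 3.67 in Mll1 cKO and 3.96 in control. Among probe sets with 1 symbol, no ligand other than Cx3cl1 reached a difference of 1.5-fold. Some chemokine probe sets with several symbols did, and they are described at the end.

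None of the 10 CC receptors was higher in Mll1 cKO, 9 were lower and Ccr1 had identical values of 3.30. All had a mean signal under 6, where 70.6% of all probe sets with 1 symbol were lower. With the trend on signal removed, Ccr1 (0.10) and Ccr6 (0.09) were higher, and the other CC receptors stayed lower. Ccr7, which guides dendritic cells and naive T cells to lymph nodes, had the largest decrease of the family, at 4.83 in Mll1 cKO and 5.51 in control, 1.60-fold lower. Of 2178 probe sets of similar signal, 0.826% had a difference as low. Ccr10 read 5.29 in Mll1 cKO and 5.71 in control, and the other CC receptors had signals under the dim yardstick in both arrays. Of these, Ccr1l1 had the largest difference, with 3.58 in Mll1 cKO and 4.10 in control. Xcr1, the XCL1 receptor of cross-presenting dendritic cells, read 3.98 in Mll1 cKO and 4.63 in control (1.56-fold lower), also within the dim range.

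Of 6 CXC receptors, only Cxcr4 was higher, 4 were lower and Cxcr5 had identical values of 3.35. The 5 others had differences of -0.24 to 0.00 and signals of at most 4.68 in Mll1 cKO and 4.92 in control. Atypical receptors split by signal. Ackr4, which scavenges CCL19, CCL21 and CCL25, read 6.21 in Mll1 cKO and 5.77 in control (1.36-fold higher), and Ackr3 was higher as given above. Ackr1, the Duffy antigen receptor, read 3.48 in Mll1 cKO and 3.68 in control, and Ackr2 read 4.87 in Mll1 cKO and 5.09 in control.

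Ligands and receptors were then set side by side in 36 textbook pairs whose partners were both measured. In 8 pairs 1 partner had a difference of 0. Of the others, 14 had partners that differed in the same direction and 14 had partners that differed in opposite directions. Only the pairs of Cxcl12 with Cxcr4 and with Ackr3 had both partners over a signal of 7. In every other pair at least 1 partner stayed under 7 in both arrays. Among the partners of Ccl25 and Ccl5, Ccr9 read 2.86 in Mll1 cKO and 3.27 in control, and Ccr3 read 3.87 in Mll1 cKO and 4.10 in control.

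**Figure D4:**
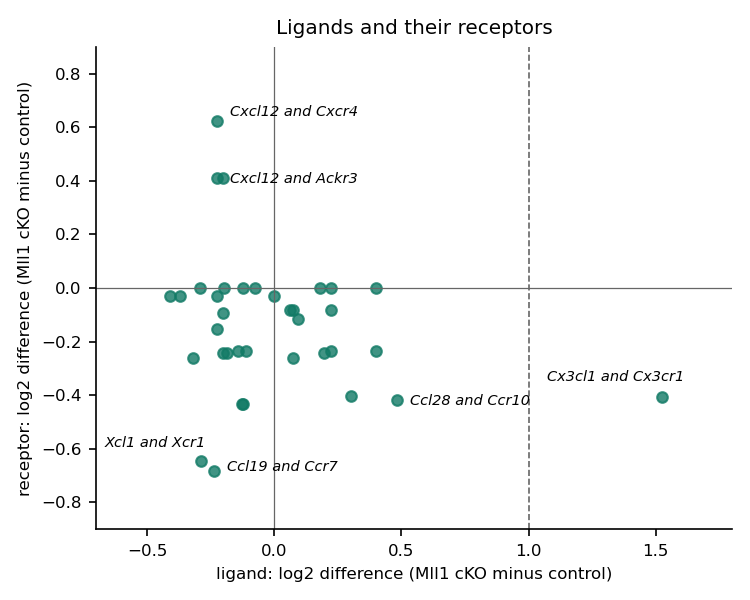
Difference in log2 signal (Mll1 cKO minus control) of the receptor (vertical) against that of the ligand (horizontal) for 36 textbook pairs, 1 point each, with a dashed line at 2-fold for the ligand. Cx3cl1 lies at 1.52 with its receptor Cx3cr1 at -0.41, and Cxcl12 at -0.22 with Cxcr4 at 0.62.

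Many chemokine genes lie in clusters, so the differences were also read along the chromosomes. With a gap of at most 500 kb, 35 genes fell in 9 clusters and 21 lay alone. A cluster of 6 CC ligand genes on chromosome 11 (Ccl2, Ccl7, Ccl11, Ccl12, Ccl8 and Ccl1) had a median difference of -0.03, with 3 higher and 3 lower. In the neighbouring cluster of 5 genes, Ccl5 was higher and Ccl9, Ccl6, Ccl3 and Ccl4 were lower, with a median of -0.20. The neutrophil chemoattractant cluster on chromosome 5 (Cxcl5, Cxcl3, Cxcl15, Cxcl1 and Cxcl2) had a median of -0.33, with none higher, 4 lower and 1 equal. All of its genes but Cxcl1 were dim in both arrays. The receptor cluster on chromosome 9 (Ccr9, Cxcr6, Xcr1, Ccr1, Ccr1l1, Ccr3 and Ccr2) had a median of -0.23, with none higher, 6 lower and 1 equal. All 7 of its genes were dim in both arrays. All genes of the neutrophil chemoattractant cluster and of this receptor cluster had a mean signal under 6. In that range 70.6% of all probe sets with 1 symbol were lower. No cluster had more than 1 gene over 1.5-fold.

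**Figure D5:**
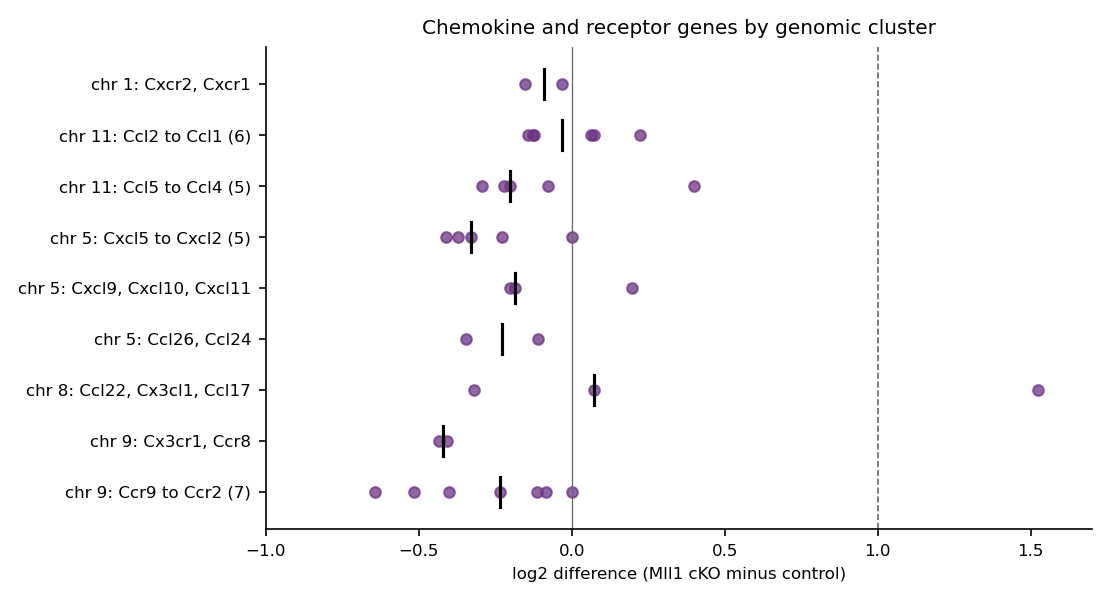
Difference in log2 signal (Mll1 cKO minus control) of each gene (points) in the 9 chemokine and receptor clusters, 1 per line, with the cluster median as a black bar and a dashed line at 2-fold. In the chromosome 8 cluster Cx3cl1 stands at 1.52 beside Ccl17 at 0.07 and Ccl22 at -0.32.

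Lists of related genes were read beside the same background, 1.18% over 2-fold higher and 0.101% over 2-fold lower. Of 50 measured genes of chemokine signal transduction, none was over 2-fold, 25 were higher and 25 were lower, and the largest difference was that of Rgs16, a GTPase activator that dampens receptor signalling, at 9.84 in Mll1 cKO and 8.95 in control. In the NF-kappaB pathway, which induces many chemokines, none of 20 genes was over 2-fold and 16 were higher, with a median difference of 0.26 (0.20 to 0.32 under the other scalings). Over all probe sets with 1 symbol 41.2% were higher, and 56.9% of those with a mean signal of 6 and over. Its largest difference was that of the inhibitor Tnip1, at 7.05 in Mll1 cKO and 6.40 in control. Of 33 inducing cytokines and receptors none was over 2-fold, and Tlr4, the endotoxin receptor, had the largest difference, at 7.55 in Mll1 cKO and 6.87 in control.

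Of 20 proteases and matrix partners of chemokines, 1 was over 2-fold: Vcan, a chemokine-binding proteoglycan, read 10.37 in Mll1 cKO and 9.24 in control (2.19-fold higher). Of 19 receptors, ligands and effectors of progenitor migration, 2 were over 2-fold. Epha4, an ephrin receptor, read 7.22 in Mll1 cKO and 5.51 in control (3.27-fold higher). Itga4, an integrin subunit that binds VCAM1, read 7.22 in Mll1 cKO and 6.19 in control (2.04-fold higher, 1.95-fold after a second quantile normalization). Hgf, the ligand of the MET receptor, followed at 4.92 in Mll1 cKO and 4.03 in control (1.86-fold higher). Its control signal lay below the dim yardstick of 4.87, and its Mll1 cKO signal lay above that of 4.59. With the trend on signal removed, 3 genes of this migration list were over 2-fold higher in place of 2. Among 20 chemokine-like genes outside the symbol rule none was over 2-fold, and Cmtm4, at 7.35 in Mll1 cKO and 7.87 in control, had the largest difference. These lists set the members in context and were given no test.

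Markers of the leukocytes that express most chemokine receptors were low in both arrays. Of 16 macrophage and monocyte markers, 4 exceeded the dim yardstick in each array, and the summed log2 signal of the 16 was 70.8 in Mll1 cKO and 72.1 in control. Members of the family are among the markers: Cx3cr1, which is among the 4, and Ccr2 here, and Cxcr2 in the neutrophil list. The defining markers Ptprc (CD45), Itgam (CD11b), Csf1r and Adgre1 (F4/80) were all within the dim range, with Ptprc at 3.69 in Mll1 cKO and 3.83 in control. The 2 markers that were higher were Cd68, a lysosomal protein abundant in macrophages, with 7.47 in Mll1 cKO and 6.08 in control (2.62-fold higher), and Laptm5, a lysosomal protein of leukocytes, with 6.46 in Mll1 cKO and 5.91 in control (1.47-fold higher). The other 14 were lower. Over all probe sets with 1 symbol and a mean signal under 6, 70.6% were lower. With the trend on signal removed, 11 of the 16 were lower, and the median difference moved from -0.22 to -0.04. Summed signals of neutrophil markers were 30.5 in Mll1 cKO and 32.1 in control, and those of lymphocyte markers were 39.1 in Mll1 cKO and 42.0 in control. Endothelial markers summed to 39.6 in Mll1 cKO and 41.5 in control, and fibroblast markers to 44.3 in Mll1 cKO and 45.9 in control. Median differences were -0.22 (neutrophil), -0.30 (lymphocyte), -0.22 (endothelial) and -0.19 (fibroblast). With the trend on signal removed they were -0.07, -0.11, -0.05 and -0.13, in the same order. Of 10 listed fibroblast markers 9 were measured here. The missing one was Ly6a (SCA1), which the paper lists among its upregulated genes. Over the measured genes, the largest differences of these 4 lists were all decreases under 2-fold. S100a9 (neutrophils) read 3.82 in Mll1 cKO and 4.35 in control, and Cd79b (B cells) read 4.61 in Mll1 cKO and 5.30 in control. Tie1 (endothelium) read 4.68 in Mll1 cKO and 5.07 in control, and Dpt (fibroblasts) read 3.18 in Mll1 cKO and 3.74 in control. Not all markers were dim. Of 9 fibroblast markers, 6 in Mll1 cKO and 4 in control exceeded the dim yardstick. The brightest, Col3a1, read 7.67 in Mll1 cKO and 8.12 in control. So did 3 of 10 lymphocyte and 3 of 9 endothelial markers in each array. Of 8 neutrophil markers, 2 in Mll1 cKO and 1 in control exceeded it. In a culture, a change in the share of a cell type and a change in RNA per cell cannot be told apart, and the part of these cells in the differences was not tested.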

How the data were processed

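Total RNA of 1 Mll1 cKO and 1 control culture was hybridised to MoGene 1.0 ST arrays. The authors normalized the scans by RMA, which corrects background, quantile normalizes and summarises probes, and deposited log2 signals for 35557 probe sets; the version of RMA was not given in the sources consulted. 6613 control probe sets, the unbroken run of lowest numbers, were left out. Of the other 28944, 21789 carried 1 symbol in the array platform's annotation and were named, while 1621 with several symbols and 5534 without any were not. All columns of values were used (0 unused). Per the labels the washout lasted 3 days; the published protocol gives 2. The number of arrays, 1 per condition, limits the precision.

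Differences and fold sizes were computed in Python 3.11.15 (numpy 2.4.6, pandas 2.3.3), with the lowess trend (span 0.3) from statsmodels 0.14.6 and plots from matplotlib 3.10.9. The code was tested on simulated data. Similar signal means the same of 10 equal groups of probe sets by mean signal. A gene with several probe sets was given as their mean in pairs, clusters and lists. Promoters came from the RefSeq table of GRCm38.p6.

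Members and lists were chosen with earlier results of these data known. Named were members over 2-fold or over a signal of 7 in either array, the largest difference of each class, partners of a member over 2-fold, and in each list the genes over 2-fold or else the largest. Other genes were named after their values were seen. Alternatives were other cut-offs, filters, scalings, gene means and updated symbols.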

Additional observations from a re-analysis of the deposited data

How the results depend on the processing

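The count of members over 2-fold higher was 1, and it became 2 at 1.5-fold and 0 at 3-fold. The count lower was 0, and it became 2 at 1.5-fold. Both counts kept their values under centring on the median, removal of the trend on signal, a second quantile normalization, a filter at a signal of 7 and gene means. The median difference of all members, -0.20, became -0.0269 with the trend removed, -0.0568 after quantile normalization and 0.36 with a mean signal over 6, and the mean was -0.10. That of ligands, -0.20, became -0.0269 with the trend removed, -0.0543 after quantile normalization and 0.30 with a mean signal over 6, and the mean was -0.0611. That of receptors, -0.21, became -0.0318 with the trend removed, -0.0677 after quantile normalization and 0.52 with a mean signal over 6. Filtering at a mean signal over 6 leaves 8 probe sets, and the cause of the other shifts was not tested. Of 61 probe sets, 48 kept their sign under all 3 scalings, and the 13 that did not differed by at most 0.20 in size as deposited. Of 75 values of the 25 genes that the naming rule gives, 75 kept their sign under these scalings and 1 crossed 2-fold, that of Itga4. Genes named outside the rule included some of the 13, such as Cxcl9, Ccl3 and Ccl11. Updated symbols changed no result. No paired analysis was possible because each condition had 1 array. Signals within the range of odorant receptors limit what the dim members can show.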

Other observations

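Chemokine probe sets that carry several symbols were left out of the counts and are not named here. There were 7. 4 of them shared identical values of 4.76 in Mll1 cKO and 5.02 in control. The other 3 were higher in Mll1 cKO, 2 with 7.33 in Mll1 cKO and 6.73 in control and 1 with 8.24 in Mll1 cKO and 7.35 in control, a difference of 0.89 or 1.85-fold. As the probe sets match several genes, these values belong to no single gene.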
